A study of Homo sapiens with 12 samples.

Results

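Cells of 2 leukaemia lines answered the same drug in part differently, and the difference between their answers is described here. For each gene the change with ITF2357 in HEL was subtracted from the change with ITF2357 in UKE1, an interaction contrast that uses all 12 arrays of the 12 in the series. HEL and UKE1 are established human lines labelled as erythroleukemia cells that carry JAK2V617F. The 4 groups were untreated HEL, HEL with ITF2357, untreated UKE1 and UKE1 with ITF2357, each with 3 arrays, which the series calls independent triplicates. Drug exposure was 250 nM for 6 h, and untreated cells were kept for the same 6 h without it. All 4 groups share the genotype, and what is compared is a pair of lines, not cell types. UKE1 was grown with horse serum, hydrocortisone and HEPES, which the HEL medium did not hold, so line and medium cannot be told apart. Nothing more is said of separate cultures, so p-values here rest on the spread among these arrays, which may be technical.

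ITF2357, also called givinostat, inhibits histone deacetylases, which take acetyl groups off histones and other proteins. Acetylated histones mark open, transcribed chromatin, yet inhibitors of these enzymes are known to lower many genes as well as to raise many. JAK2 passes signals from cytokine receptors to STAT transcription factors, and the V617F change makes it active without a cytokine. It is the hallmark mutation of myeloproliferative neoplasms, in which givinostat has been studied.

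Levels are log2 values, so a step of 1 is a 2-fold change, and they were compared within a gene only. The difference below is always the UKE1 response minus the HEL response on the log2 scale: a positive value means a larger rise, or a smaller fall, in UKE1. A gene rose, fell or differed where limma's adjusted p (Benjamini-Hochberg over 18417 genes) was under 0.05, and errors of changes are standard errors. Within a group, arrays correlated at r = 0.994 to 0.996 (all rows), array medians lay between 6.41 and 6.50, and the median difference over all genes was 0.01. To mark dim genes, a low level was set at 5.83, the 95th percentile of 341 olfactory receptor genes in the untreated groups. Changes that begin or end under it are given as measured log2 values and may understate the change, and those wholly under it rest on dim signal. Of 23 erythroid markers measured, 2 were at or under it in untreated HEL and 11 in untreated UKE1. KLF1, the erythroid master factor, read 8.66 ± 0.101 in HEL and 6.84 ± 0.0794 in UKE1, and ALAS2, of haem synthesis, 9.48 ± 0.0791 and 5.96 ± 0.0179 (SD, n = 3). RHAG, of the Rh complex, was at 10.93 ± 0.0161 and 12.25 ± 0.0154, while CD34, the stem cell antigen, was at 5.81 ± 0.0444 and 12.12 ± 0.0685. Of 25 myeloid markers, 14 were low in HEL and 4 in UKE1.

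The responses differed for 4395 genes, 23.9% of those tested. In 1854 (10.1%) the difference was positive, and in 2541 (13.8%) negative. Only 131 (0.711%) and 259 (1.41%) of these differed by at least 2-fold. For 1660 genes (9.01%) all 9 treated-minus-untreated array differences in UKE1 lay above all 9 in HEL and for 2354 (12.8%) below them. As background, 22.6% of genes rose and 19.9% fell in HEL, and 22% rose and 22.3% fell in UKE1, while 67.7% differed between the untreated lines. The positive share of the called genes, 42.2%, moved with the scaling, to 30.6% after centring each array on its median and to 51.4% after centring over the tested genes only.

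Most differing genes had changed in a single line. UKE1 alone lowered 763 genes and raised 628, whereas HEL alone raised 677 and lowered 522. Both lines moved the gene the same way to a different extent in 1329 cases: 211 falls and 401 rises were larger in HEL, and 391 falls and 326 rises were larger in UKE1. Opposite changes made up 386 genes, with 275 up in HEL and down in UKE1 and 111 down in HEL and up in UKE1 (69 of the latter kind after median centring). The remaining 90 genes were called in neither line, and none of them differed by 2-fold. Among the genes that differed by at least 2-fold, the opposite kinds held 88 and 29.

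**Figure D1:**
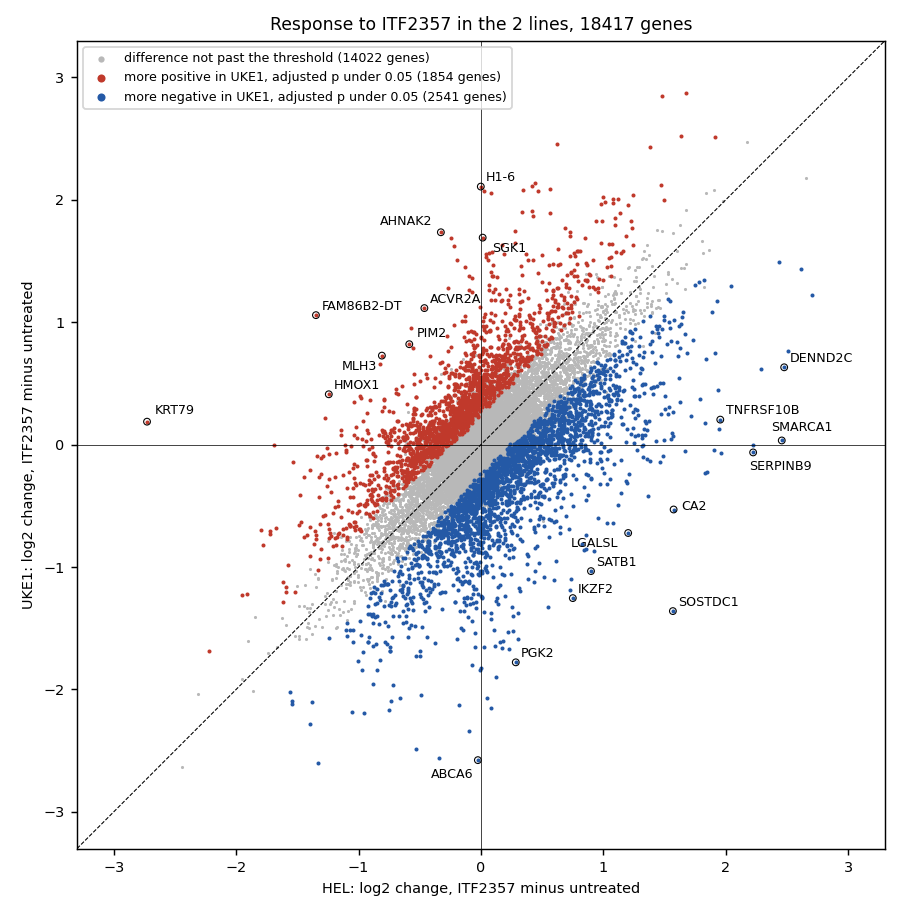
Each point is 1 of 18417 genes, with its log2 change in HEL on the x axis and in UKE1 on the y axis; the dashed line marks equal responses. Red points (1854) lie above it and blue points (2541) below it past the threshold, and KRT79, FAM86B2-DT, SOSTDC1 and ABCA6 stand far from the line.

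The most negative difference was that of SOSTDC1, a secreted antagonist of BMP and Wnt signals. Untreated HEL arrays read 5.13, 4.53 and 4.96 and treated ones 6.38, 6.46 and 6.49, whereas UKE1 went from 6.77, 6.75 and 6.40 to 5.20, 5.32 and 5.33. The drug thus raised the gene by 1.57 in HEL and changed it by -1.36 in UKE1, with no overlap between treated and untreated arrays in either line. Its untreated HEL and treated UKE1 levels were under the low level (difference -2.93 ± 0.185, adjusted p = 2.96e-07). It was the only gene that rose at least 2-fold in HEL and fell at least 2-fold in UKE1.

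In contrast, the keratin KRT79 had the most positive difference and owed it to HEL. Its arrays read 9.50, 9.50 and 9.52 in untreated HEL and 6.73, 6.77 and 6.83 with the drug, a 6.63-fold fall. In UKE1 they read 5.50, 5.31 and 5.52 without and 5.72, 5.66 and 5.51 with it, so those groups overlapped at a low level although the rise of 0.19 passed the test. The difference was 2.92 ± 0.101 (adjusted p = 3.97e-09). FAM86B2-DT, a divergent transcript, was the only gene to fall at least 2-fold in HEL and rise at least 2-fold in UKE1. It read 9.13, 9.09 and 9.23 in untreated HEL and 7.53, 7.97 and 7.91 treated, against 5.98, 5.93 and 5.33, then 6.60, 6.58 and 7.23, in UKE1 (difference 2.41 ± 0.266, adjusted p = 2.63e-05). FAM86 genes are a family of near copies, so its probes may share signal with relatives.

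Genes raised in UKE1 from under the low level made up the other 8 of the 10 largest positive differences. H1-6, the testis linker histone, read 5.65, 5.51 and 5.81 in untreated UKE1 and 7.81, 8.0 and 7.48 treated. All 3 treated arrays were above every other array of the gene, as HEL read 5.01 to 5.45 without and 4.94 to 5.63 with the drug (difference 2.11 ± 0.256, adjusted p = 5.66e-05). AHNAK2, a large scaffold protein, rose by 1.74 in UKE1, and its HEL change of -0.33 was wholly under the low level. The dynein assembly factor DNAAF11, the glutamine transporter SLC38A3, the formin FMNL2 and the centrosomal CEP112 rose by 2.07, 2.06, 1.69 and 1.63 in UKE1, with HEL changes of 0.02, 0.09, -0.24 and -0.22 that did not pass the test. GRAMD1C, a sterol transfer protein, and the histone H4C16 rose by 2.46 and 2.08 in UKE1; their HEL changes of 0.62 and 0.34 passed the test but stayed under the low level.

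Large negative differences came in both forms, as rises in HEL alone and as falls in UKE1 alone. SMARCA1, an ATPase that slides nucleosomes, read 4.81, 4.79 and 5.01 in untreated HEL and 7.24, 7.41 and 7.34 treated, while every UKE1 array lay between 3.58 and 4.13 (difference -2.42 ± 0.181, adjusted p = 9.43e-07). SERPINB9, the inhibitor of granzyme B, rose 4.67-fold in HEL, reading 7.01, 7.14 and 7.17 before and 9.37, 9.33 and 9.29 after. Its 6 UKE1 arrays stayed between 5.33 and 5.61, under the low level. ARHGAP29 rose by 2.22 in HEL and read 2.85 to 3.07 on all 6 UKE1 arrays.

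Of the 10 most negative differences, those of ABCA6, ABCA9, NDST3, OR52N5 and ANGPT2 came from UKE1, and all of these but ANGPT2 were under the low level in untreated HEL. ABCA6, a transporter of the ABCA family, read 8.37, 8.33 and 8.23 in untreated UKE1 and 5.58, 5.93 and 5.69 treated, and all 6 HEL arrays lay between 2.90 and 3.12. Its difference of -2.55 ± 0.131 (adjusted p = 6.61e-08) is thus nearly all UKE1 fall. ABCA9, of the same gene cluster, fell by 2.56 in UKE1 to under the low level, and its HEL change of -0.34 lay wholly under that level. Other members of that cluster, looked up after their values were seen, were not uniform: ABCA10 had a difference of -1.25, ABCA8 of -0.31 (adjusted p = 0.0485) and ABCA5 of 0.92. NDST3, which sulfates heparan chains, went from 7.28, 7.33 and 7.26 to 4.98, 5.31 and 5.12 in UKE1 and stayed at 2.77 to 2.96 in HEL. ANGPT2, an angiopoietin that destabilises vessels, fell by 2.07 in UKE1 to under the low level, and its HEL change of 0.05 did not pass the test. OR52N5, an olfactory receptor gene, fell by 2.34 in UKE1 to under the low level, and its neighbour OR52N1, looked up afterwards, had a difference of -1.95. Olfactory receptors are a family of similar sequences, and shared probes between these genes were not tested.

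Beyond the genes above, the widest opposite changes were those of CA2, PGK2, IKZF2, SATB1, LGALSL, HMOX1, ACVR2A and MLH3. CA2, the carbonic anhydrase of red cells, read 7.63, 7.45 and 7.52 in untreated HEL and 9.22, 8.96 and 9.15 treated, and 9.56, 9.42 and 9.36, then 8.96, 8.93 and 8.85, in UKE1. The lines were thus far apart before treatment and close to each other after it (difference -2.10 ± 0.114, adjusted p = 9.55e-08). LGALSL, a galectin-like protein, met in the same way, from 7.27, 7.30 and 7.02 to 8.34, 8.47 and 8.40 in HEL and from 9.25, 9.06 and 9.13 to 8.44, 8.43 and 8.40 in UKE1. Its treated arrays overlapped between the lines although the untreated arrays did not.

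The lymphoid regulators IKZF2 (Helios) and SATB1, a chromatin organiser, also rose in HEL and fell in UKE1. IKZF2 read 5.20, 5.01 and 5.17, then 5.83, 5.90 and 5.91, in HEL, and 7.81, 7.89 and 7.80, then 6.51, 6.59 and 6.64, in UKE1 (difference -2.0 ± 0.0944, adjusted p = 4.55e-08). SATB1 stayed far apart between the lines, at 4.26 to 4.41 rising to 5.03 to 5.47 in HEL and 10.73 to 10.77 falling to 9.70 to 9.74 in UKE1. PGK2, a testis phosphoglycerate kinase, fell by 1.78 in UKE1 to under the low level, and its HEL change of 0.28 was wholly under that level. Every HEL array of SATB1 was under that level too, so the HEL side of both opposite calls rests on dim signal.

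In the other direction, HMOX1, which breaks down haem, fell 2.37-fold in HEL, from 9.58, 9.60 and 9.72 to 8.37, 8.24 and 8.55. In UKE1 it rose from 5.99, 6.04 and 6.04 to 6.48, 6.39 and 6.42, a 1.33-fold change (difference 1.65 ± 0.107, adjusted p = 3.32e-07). ACVR2A, an activin receptor, fell by 0.46 in HEL and rose by 1.12 in UKE1, and MLH3, of DNA mismatch repair, fell by 0.81 and rose by 0.73, the rise wholly under the low level. For all 3 genes the treated arrays of each line lay apart from its untreated ones.

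**Figure D2:**
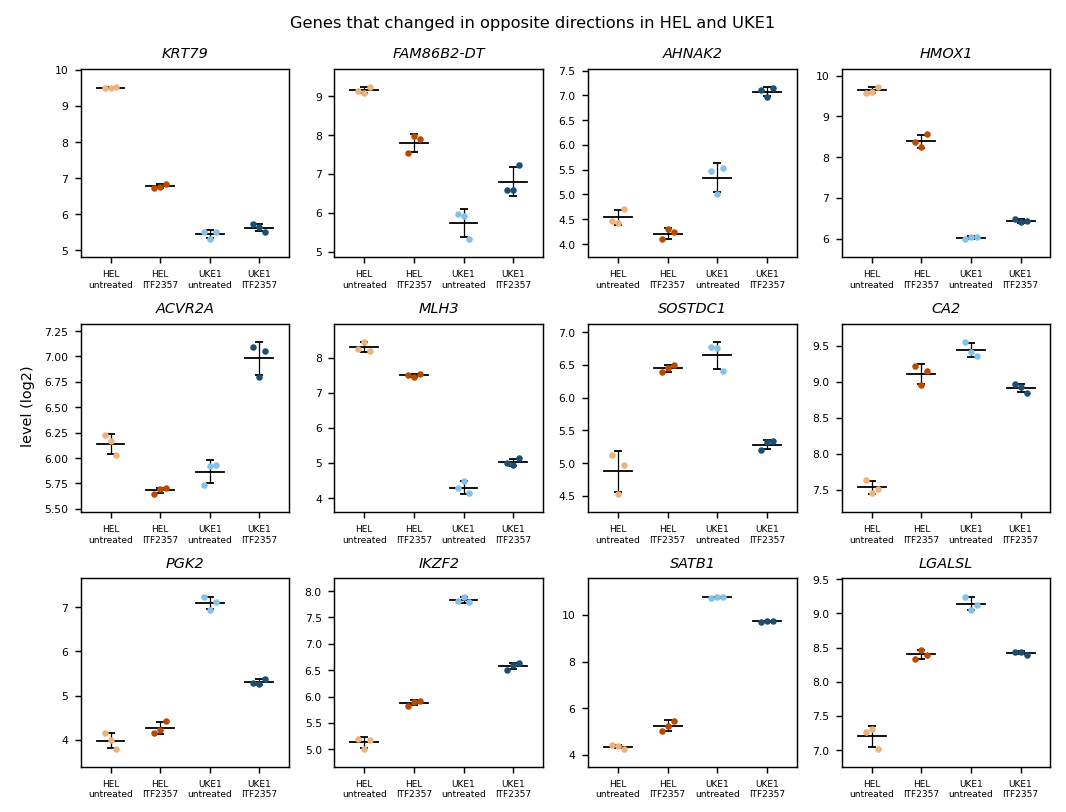
Log2 levels of the 12 genes with the largest differences among those called in opposite directions; points are the 3 arrays of each group, lines the mean and bars the SD. SOSTDC1 rises from HEL untreated to HEL with ITF2357 and falls in UKE1, and FAM86B2-DT does the reverse.

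The untreated level of a gene was then set against its response difference. Of 18417 genes, 1351 were at least 2-fold higher in untreated UKE1 and 1527 in untreated HEL, 11543 were within 0.5 and 3996 were 0.5 to 1 apart. Among the genes higher in UKE1, 663 (49.1%) had a negative difference and 107 (7.92%) a positive one, with a median of -0.33 (quartiles -0.68 and -0.01). Their median change was 0.06 in HEL and -0.15 in UKE1: 44.8% fell in UKE1 and 33.8% rose in HEL. Genes higher in HEL leaned the other way and less: 422 (27.6%) were positive and 222 (14.5%) negative, with a median of 0.09 (quartiles -0.20 and 0.37). They did not mirror the first class, as their median change was -7.4e-05 in HEL and 0.05 in UKE1. In HEL 33.9% of them rose and 35.2% fell, and in UKE1 28.7% rose and 19.9% fell. Among the genes within 0.5, 887 (7.68%) were positive and 996 (8.63%) negative, with a median of 0.03. In this class, and among the genes 0.5 to 1 apart (median -0.02), the sign of the median turned with the scaling.

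The untreated arrays enter both the gap and the difference, so they are not independent measures. When the gap was taken from the arrays of 1 replicate number and the difference from those of the other 2 numbers, the medians of genes higher in UKE1 were -0.26, -0.32 and -0.29, and 70.5% to 75.5% of these genes were below 0. The medians of genes higher in HEL were 0.09, 0.05 and 0.09. The pattern was as large without dim genes: with both lines above the low level, 421 of 728 genes higher in UKE1 (57.8%) were negative and 22 (3.02%) positive, with a median of -0.37. With HEL alone at or under the low level, 206 of 473 (43.6%) were negative and 63 (13.3%) positive. With both lines low, 36 of 150 (24%) were negative and 22 (14.7%) positive. Of 864 genes higher in HEL and above the low level in both lines, 255 (29.5%) were positive and 102 (11.8%) negative. With UKE1 alone low, 151 of 549 (27.5%) were positive and 94 (17.1%) negative. Those low in both lines leaned the other way, with 16 of 114 (14%) positive and 26 (22.8%) negative.

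Genes that differed most leaned the same way. Here the untreated arrays entered both the gap and the difference, and the gap was not taken from separate arrays. Of the 259 genes with a negative difference of at least 2-fold, 164 (63.3%) were at least 2-fold higher in untreated UKE1, 37 (14.3%) at least 2-fold higher in HEL and 32 (12.4%) within 0.5. Of the 131 genes with a positive one, 65 (49.6%) were higher in untreated HEL, 19 (14.5%) in UKE1 and 29 (22.1%) within 0.5. Over all 18417 genes, 1351 were at least 2-fold higher in UKE1, 1527 in HEL, and 11543 were within 0.5. Many of the large differences involved dim signal. Above the low level in both lines were 135 (52.1%) of the negative and 50 (38.2%) of the positive ones. Low in both lines were 25 (9.65%) and 35 (26.7%).

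**Figure D3:**
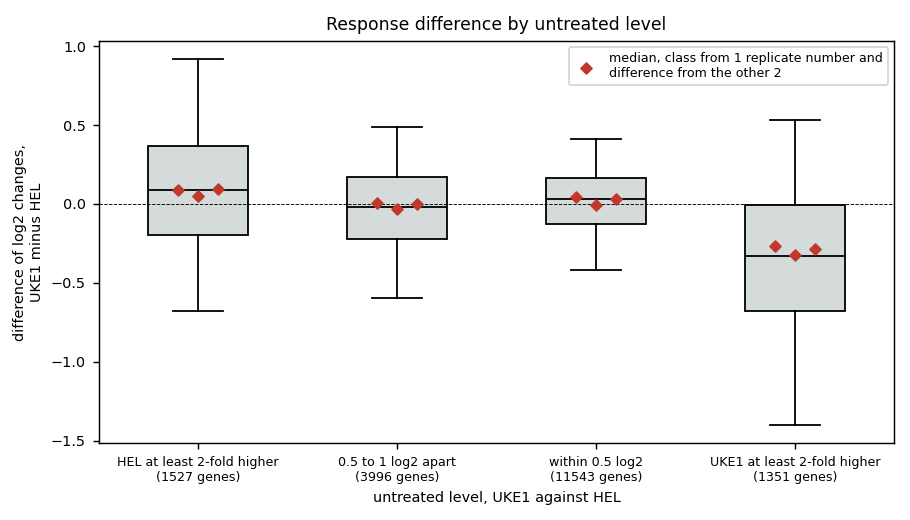
Response differences (log2, UKE1 minus HEL) on the y axis for genes grouped by the gap between the untreated lines; boxes give median and quartiles, whiskers the 5th and 95th percentiles, and diamonds are medians with the gap and the difference taken from different arrays. The box of genes at least 2-fold higher in untreated UKE1 has a median of -0.33, and that of genes at least 2-fold higher in HEL a median of 0.09.

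Some genes differed from near-equal starting levels. Of 7129 genes whose untreated means lay within 0.5 of each other and above the low level in both lines, 650 (9.12%) had a positive and 900 (12.6%) a negative difference, against 10.1% and 13.8% over all genes. Differences of at least 2-fold were rarer than over all genes, with 10 (0.14%) and 21 (0.295%) against 0.711% and 1.41%. CYBRD1, a ferric reductase of iron uptake, started at 9.74, 9.84 and 9.83 in HEL and 9.77, 9.71 and 9.72 in UKE1. With the drug HEL stayed at 9.75, 9.76 and 9.75, whereas UKE1 fell to 8.12, 8.23 and 8.24 (difference -1.49 ± 0.0829, adjusted p = 1.15e-07). The starting arrays of the lines overlapped and the treated ones lay far apart.

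DENND2C, an exchange factor for Rab GTPases, and TRERF1, a zinc finger cofactor, answered mainly in HEL. DENND2C rose 5.57-fold there, from 6.12, 6.38 and 5.96 to 8.71, 8.54 and 8.64, and 1.55-fold in UKE1, from 6.31, 6.08 and 6.22 to 6.69, 6.86 and 6.95. TRERF1 rose 2.95-fold in HEL, and its UKE1 change of 0.09 did not pass the test. PLAAT3, a phospholipase, rose 3.46-fold in HEL and 1.29-fold in UKE1. The interleukin 18 receptor chain IL18RAP fell by 0.66 in HEL and fell by 2.07 in UKE1, and PDE5A, which breaks down cyclic GMP, fell by 1.61 in UKE1 with a HEL change of 0.16 that did not pass the test. The UKE1 means of IL18RAP and PDE5A ended under the low level.

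Positive differences from starts within 0.5 of each other included AKAP12, an anchor of protein kinase A, which went from 7.99, 7.89 and 7.84 to 6.92, 6.83 and 7.04 in HEL and from 8.19, 8.13 and 8.20 to 8.45, 8.63 and 8.59 in UKE1. Its untreated arrays did not overlap between the lines, nor did those of NFYA, ACVR2A, APOLD1, PDE5A and PLAAT3. NFYA, a subunit of the factor that binds the CCAAT box, fell by 0.70 in HEL and rose by 0.42 in UKE1 (difference 1.12 ± 0.0843, adjusted p = 1.03e-06). DISP1, which releases hedgehog ligands, fell by 0.56 and rose by 0.79. The pseudogene ADCY10P1 and the vascular gene APOLD1 rose by 1.51 and 1.12 in UKE1, and their HEL changes of -0.19 and -0.01 did not pass the test.

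**Figure D4:**
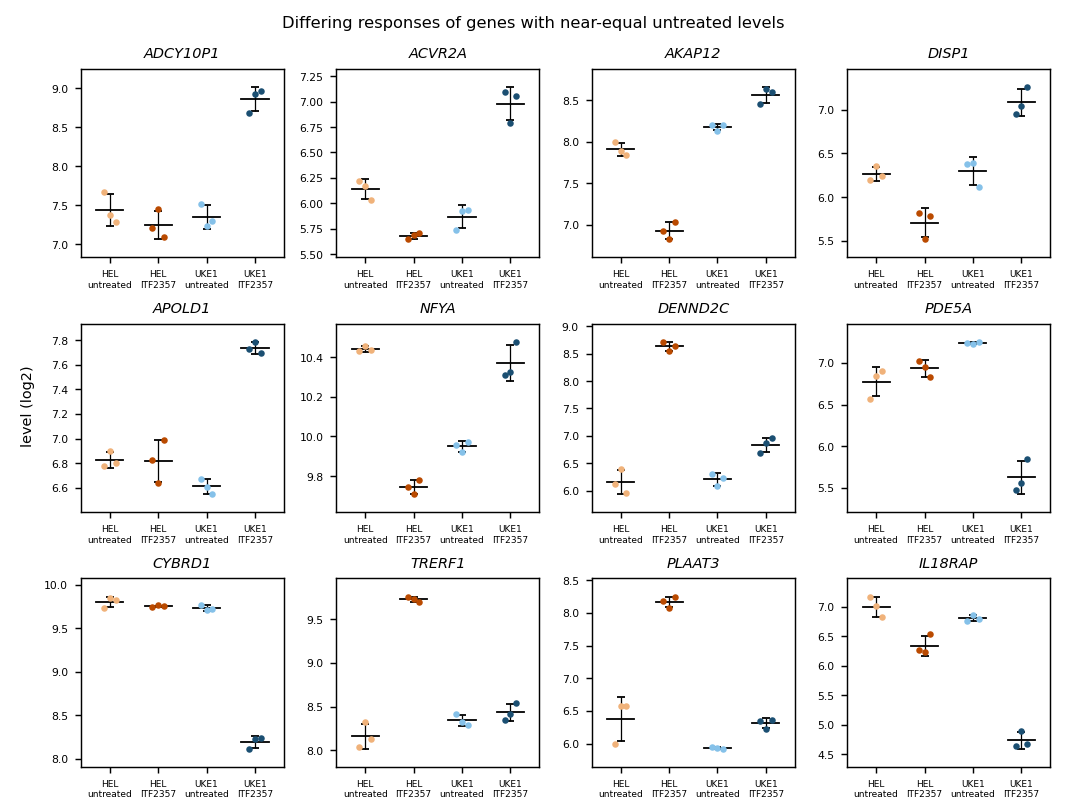
Log2 levels of the 12 genes with the largest differences among those with near-equal untreated levels in the lines; points are the 3 arrays of each group, lines the mean and bars the SD. CYBRD1 starts near 9.8 in HEL and 9.7 in UKE1 and falls to about 8.2 only in treated UKE1.

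Gene groups were described from 29 lists with 732 entries, of which 629 genes were measured. Each count is to be read against the shares over all genes tested, 10.1% positive and 13.8% negative with a median of 0.01. The negative share varied with untreated level, being 49.1% among genes at least 2-fold higher in untreated UKE1. It was 17.4% among genes above the low level in both lines and 3.57% among those low in both. List counts were not set against genes of like untreated level, so the part of that level in them was not tested. Genes can stand in more than 1 list. Counts of 4 or fewer moved by up to 3 genes under other settings or with 1 array left out. The counts of 0 positive genes became up to 3 among CDK inhibitors and G1 cyclins, 2 among DNA replication genes and 1 each among stem and progenitor genes and death receptors and caspases.

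Within the JAK-STAT list, 6 of 29 genes had a positive and 6 a negative difference (median 0.04, or -0.01 after median centring). PIM1 and PIM2, kinases that STAT5 induces and that promote survival, moved in opposite directions in the lines. PIM2 read 11.45, 11.49 and 11.51 in untreated HEL and 10.91, 10.89 and 10.89 treated, against 8.66, 8.49 and 8.51, then 9.33, 9.42 and 9.37, in UKE1 (difference 1.41 ± 0.0851, adjusted p = 1.90e-07). PIM1 fell by 0.79 in HEL and rose by 0.37 in UKE1. The feedback inhibitor SOCS2 did the reverse, rising by 0.38 in HEL and falling by 0.30 in UKE1.

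JAK2 itself fell only in UKE1, from 8.60, 8.60 and 8.49 to 8.0, 7.97 and 8.03. In HEL it read 10.60, 10.66 and 10.63 without and 10.71, 10.87 and 10.62 with the drug, which overlapped (difference -0.67 ± 0.0977, adjusted p = 0.000247). STAT3 rose by 0.64 in UKE1, and its HEL change of 0.06 did not pass the test. STAT5A did not differ past the threshold: its difference was 0.12, with a 95% interval from -0.06 to 0.31 (adjusted p = 0.337).

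Of 27 cytokine receptors 7 had a negative and 1 a positive difference. The positive one was IL4R, the interleukin 4 receptor, which fell by 0.55 in HEL and rose by 0.58 in UKE1. Negative ones included IL10RA (-1.28), which rose by 1.53 in HEL, and CSF1R (-1.36), the receptor of the macrophage growth factor. CSF1R went from 10.22, 10.18 and 10.25 to 8.74, 8.84 and 8.75 in UKE1, and its HEL arrays read 5.61 to 5.82. All 3 untreated HEL arrays were under the low level.

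Interferon-stimulated genes, which viral defence signals induce, gave 19 negative of 35 (54.3%) and 2 positive, with a median of -0.34. In HEL 10 of the 35 rose and 11 fell, and in UKE1 6 rose and 19 fell. IFIT1, which binds viral RNA, read 5.98, 5.90 and 5.79, then 6.76, 6.73 and 6.96, in HEL, and 7.47, 7.47 and 7.40, then 6.61, 6.60 and 6.53, in UKE1 (difference -1.79 ± 0.104, adjusted p = 1.48e-07). GBP2, an interferon-induced GTPase, rose by 1.36 in HEL from under the low level, and its UKE1 change of -0.12 did not pass the test. BST2 (tetherin) rose by 1.63 in HEL and 0.35 in UKE1, whereas IFIT3 fell by 0.44 and 1.57. The positive pair was SAMHD1, which depletes nucleotides (0.88), and the lysosomal IFI30 (0.41), and both rose in each line. SAMHD1 started under the low level in UKE1.

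Stem and progenitor genes had the largest negative share of the 29 lists: 11 of 17 (64.7%) were negative and 0 positive, with a median of -0.49. CD34 fell from 12.20, 12.06 and 12.10 to 10.96, 10.97 and 10.88 in UKE1, and from 5.76 to 5.84 down to 5.31 to 5.39 in HEL (difference -0.74 ± 0.0845, adjusted p = 3.66e-05). MLLT3, which maintains stem cells, rose by 0.48 in HEL and fell by 0.60 in UKE1. THY1 rose by 1.33 in HEL, with a UKE1 change of 0.13 that did not pass the test. Of the 17, 9 were under the low level in untreated HEL, CD34 among them, and 5 in untreated UKE1, THY1 among them.

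Of 25 myeloid markers 11 (44%) were negative and 2 positive (median -0.32). VCAN, a matrix proteoglycan of monocytes, fell from 10.60, 10.54 and 10.52 to 9.01, 9.04 and 9.08 in UKE1, and CLEC4D, a lectin receptor, fell by 2.48 there and by 0.53 in HEL. The HEL fall of CLEC4D lay wholly under the low level. ITGAM and CLEC12A were the 2 positive ones and rose by 0.66 and 0.71 in UKE1. As given above, 14 of the 25 were under the low level in untreated HEL. T and B cell markers held 3 positive (17.6%) and 2 negative (11.8%) of 17, against 10.1% and 13.8% over all genes, with 9 under the low level in HEL and 5 in UKE1. Of 17 endothelial, fibroblast and epithelial markers 3 were negative, among them KDR, a VEGF receptor, which rose by 0.38 in HEL and fell by 1.10 in UKE1. The UKE1 fall of KDR ended under the low level.

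Haematopoietic transcription factors gave 6 negative (21.4%) and 2 positive (7.14%) of 28 (median -0.13). ERG, an ETS factor of stem cells and megakaryocytes, rose from 6.08, 5.70 and 5.84 to 7.01, 6.96 and 6.89 in HEL and fell from 9.26, 9.18 and 9.22 to 8.49, 8.68 and 8.57 in UKE1 (difference -1.72 ± 0.124, adjusted p = 7.32e-07). MEIS1, a HOX cofactor, and LDB1, which bridges enhancers and promoters, rose by 0.58 and 0.54 in HEL, and their UKE1 changes of -0.02 and -0.11 did not pass the test. The factors GATA1, TAL1, NFE2 and MYB were not called. Their differences were -0.11, -0.16, -0.17 and 0.04, and the 95% intervals ran from -0.34 to 0.12, -0.40 to 0.08, -0.39 to 0.06 and -0.14 to 0.22 in that order (adjusted p = 0.52, 0.342, 0.281 and 0.773). These intervals leave room for differences of up to 0.40, which is smaller than that of ERG.

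Erythroid markers gave 3 positive (13%) and 5 negative (21.7%) of 23, against 10.1% and 13.8% over all genes (median 0.01, or -0.05 after median centring). Besides CA2, RHAG rose by 0.20 in HEL and fell by 0.90 in UKE1, whereas ANK1, the red cell ankyrin, fell by 0.67 in HEL with a UKE1 change of 0.12 that did not pass the test. Every UKE1 array of ANK1 was under the low level. Of 24 megakaryocyte and platelet genes 9 (37.5%) were negative and 4 (16.7%) positive. HOX genes gave 3 negative (30%) of 10 measured.

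Death receptors and caspases, which carry out apoptosis, were negative in 10 of 18 (55.6%) and positive in 0, with a median of -0.33; the count was 6 without the third HEL ITF2357 array, the first untreated UKE1 array or the second UKE1 ITF2357 array. TNFRSF10B, the TRAIL receptor DR5, rose by 1.96 in HEL, from 5.85, 5.79 and 5.43 (mean under the low level) to 7.54, 7.69 and 7.71. It was already high in UKE1, at 9.09, 8.94 and 8.93, and read 9.20, 9.17 and 9.20 with the drug. FAS fell by 1.14 in UKE1, and its HEL change of 0.15 did not pass the test. Untreated HEL read 5.76, 5.83 and 5.76 for FAS, close to the low level. CASP6, an executioner caspase, rose by 0.51 in HEL and fell by 0.60 in UKE1.

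The p53 target list shared TNFRSF10B, FAS and CDKN1A, among others, with the other lists and gave 8 negative of 26 (30.8%). PMAIP1 (NOXA) was its positive gene, at 0.82. In the BCL2 family 3 of 21 genes were positive and 2 negative, and BCL2L1 (BCL-XL) had a difference of -0.13 with a 95% interval from -0.34 to 0.08 (adjusted p = 0.374).

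Cell cycle lists held more negative than positive differences. Of 18 CDK inhibitors and G1 cyclins 9 (50%) were negative and 0 positive. CCND1 and CCND2, the D cyclins, fell by 0.85 and 0.83 in UKE1, and their HEL changes of 0.14 and 0.07 did not pass the test. CDKN1A (p21), a CDK inhibitor that deacetylase inhibitors often raise, rose from 7.73, 7.79 and 7.63 to 8.77, 8.63 and 8.77 in HEL and from 7.93, 7.89 and 7.92 to 8.32, 8.39 and 8.36 in UKE1 (difference -0.56 ± 0.0891, adjusted p = 0.000455). Of 48 DNA replication genes 19 (39.6%) were negative and 0 positive. GINS3 fell by 0.83 in HEL and fell by 1.76 in UKE1, and PCNA, the polymerase clamp, rose by 0.35 and fell by 0.22. Mitosis genes gave 10 negative and 2 positive of 34.

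Immediate early genes, which growth and stress signals induce, were positive in 8 of 24 (33.3%) and negative in 2, with a median of 0.22. JUN, a subunit of AP-1, rose from 6.25, 6.22 and 6.23 to 7.49, 7.58 and 7.45 in UKE1, whereas HEL read 9.44 to 9.56 without and 9.54 to 9.67 with the drug (difference 1.16 ± 0.0870, adjusted p = 1.00e-06). MYC fell in both lines, by 0.79 in HEL and by 0.22 in UKE1.

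Glucocorticoid-responsive genes were positive in 6 of 15 (40%) and negative in 2, and hydrocortisone was in the UKE1 medium only. SGK1, a kinase of ion transport, rose from 5.19, 5.35 and 5.24 to 6.95, 6.98 and 6.93 in UKE1 and stayed at 5.36 to 5.54 in HEL (difference 1.68 ± 0.0896, adjusted p = 8.64e-08). DDIT4, an inhibitor of mTOR, rose 4.21-fold in UKE1 and 1.38-fold in HEL. The untreated level of SGK1 was low in both lines. The part of hydrocortisone in these differences was not tested.

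Metallothioneins, which bind zinc, were positive in 6 of 11 (54.5%) and negative in 0, with a median of 0.29, and 3 were positive without the second untreated HEL array or the second UKE1 ITF2357 array. MT1F rose by 0.68 in UKE1, with a HEL change of -0.01 that did not pass the test. Probes of these near-identical genes can share signal, so the members are not independent of each other.

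Histone genes were positive in 7 of 16 (43.8%) and negative in 3. H1-10, a linker histone, rose by 0.85 in HEL and 1.69 in UKE1, whereas MACROH2A2, a variant of silent chromatin, fell by 1.33 in UKE1 with a HEL change of -0.04 that did not pass the test. Every HEL array of MACROH2A2 was under the low level. Among genes often raised by deacetylase inhibitors, 6 of 15 were positive and 5 negative. DHRS2, a dehydrogenase of that list, rose by 0.56 in HEL and 2.09 in UKE1, from under the low level in both lines. Of 25 deacetylases and corepressors themselves 4 (16%) were negative and 1 (4%) positive, against 13.8% and 10.1% over all genes.

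The remaining lists concern growth and metabolism. MYC and ribosome biogenesis genes gave 8 positive and 3 negative of 37, with 31 of them falling in HEL and 33 in UKE1. Amino acid response and ER stress genes gave 7 positive and 5 negative of 24, and 3 positive after median centring or without the second UKE1 ITF2357 array and 4 without the first HEL ITF2357 array or the third untreated UKE1 array. Cholesterol synthesis genes gave 6 negative and 2 positive of 18, with 12 rising in HEL and 6 in UKE1, and 3 were negative without the third UKE1 ITF2357 array.

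**Figure D5:**
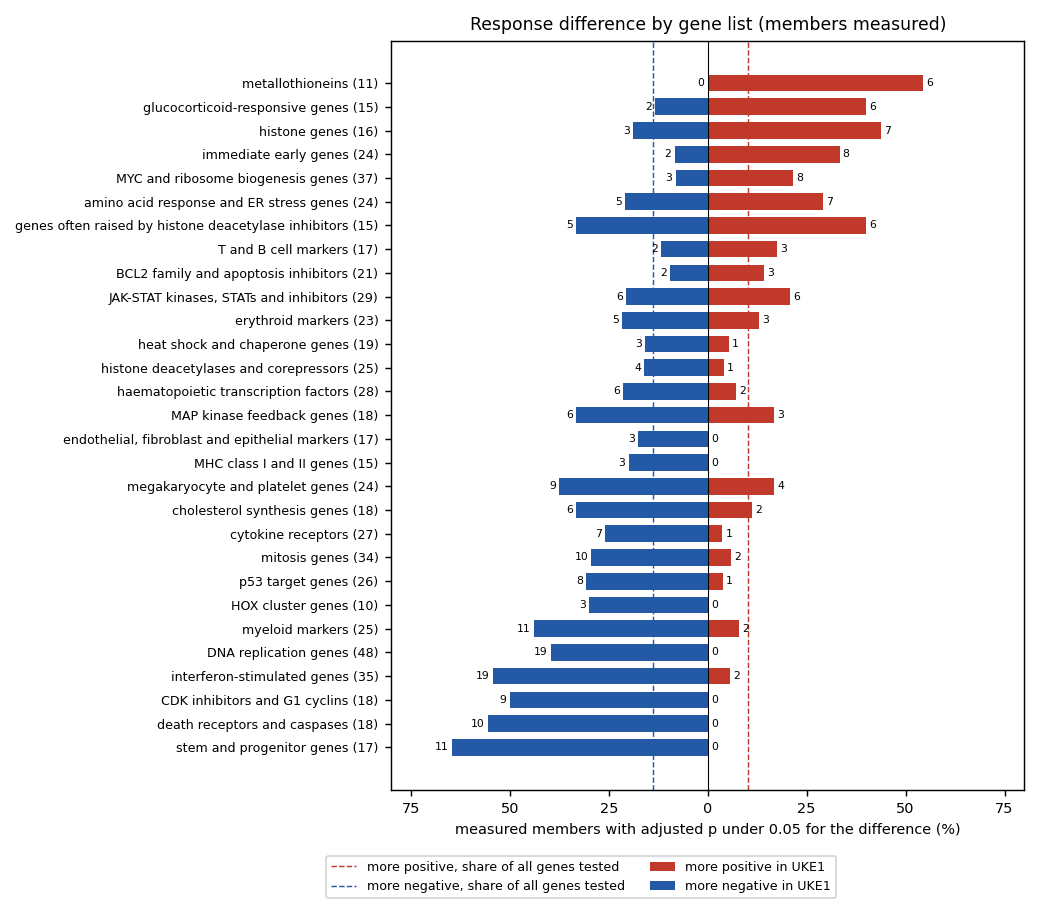
Share of each list's measured genes with a positive (right) and negative (left) difference past the threshold, in percent; dashed lines give the shares over all genes tested, 10.1% and 13.8%. Stem and progenitor genes (64.7%), death receptors and caspases (55.6%) and interferon-stimulated genes (54.3%) reach furthest left, and metallothioneins (54.5%) furthest right.

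Promoters were read from RefSeq (assembly GRCh38.p14), as 300 bases around each gene's start, for 14239 of the 18417 genes. The sequences below show a gene that fell in UKE1 alone, a gene that fell in both lines from near-equal levels, and a JAK-STAT gene with opposite changes. Capitals mark matches, on either strand, to GGGCGG (the GC box of SP factors), CCAAT (bound by NF-Y), AGATAA (bound by GATA factors), TGACTCA (AP-1), TTCNNNGAA (STAT factors) or to TTTC repeated after any 2 bases (the interferon response motif), 5′ to 3′ on the gene's strand.
ABCA6, chr17:69141846-69142145, minus strand: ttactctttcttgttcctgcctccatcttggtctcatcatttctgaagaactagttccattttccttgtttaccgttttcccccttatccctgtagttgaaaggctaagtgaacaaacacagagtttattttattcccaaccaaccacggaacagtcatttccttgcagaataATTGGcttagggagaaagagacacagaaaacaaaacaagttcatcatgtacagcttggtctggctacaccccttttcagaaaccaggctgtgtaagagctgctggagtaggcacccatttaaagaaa
IL18RAP, chr2:102418371-102418670, plus strand: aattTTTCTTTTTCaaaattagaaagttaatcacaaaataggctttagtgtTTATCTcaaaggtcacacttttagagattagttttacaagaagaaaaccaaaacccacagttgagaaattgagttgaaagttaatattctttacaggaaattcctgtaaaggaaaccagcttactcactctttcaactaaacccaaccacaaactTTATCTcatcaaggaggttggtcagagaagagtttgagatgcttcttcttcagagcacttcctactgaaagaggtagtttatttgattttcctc
PIM2, chrX:48918975-48919274, minus strand: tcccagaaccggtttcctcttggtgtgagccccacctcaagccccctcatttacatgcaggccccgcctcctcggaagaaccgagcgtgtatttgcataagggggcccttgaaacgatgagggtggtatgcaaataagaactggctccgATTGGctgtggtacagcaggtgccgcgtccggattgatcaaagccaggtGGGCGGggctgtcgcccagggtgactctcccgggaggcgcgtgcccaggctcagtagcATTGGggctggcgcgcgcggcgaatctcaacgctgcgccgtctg

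The first of these had a GC content of 41.7% and 1 match (CCAAT), IL18RAP had 33.3% with 2 matches to AGATAA and 1 interferon response match, and PIM2 had 62.3% with 1 GC box and 2 CCAAT matches. Promoters of the genes with a negative difference of at least 2-fold (201 of 259 had one) had a median GC content of 59% and a ratio of observed to predicted CpG of 0.638, against 63% and 0.775 over all genes. The positive ones (102 of 131) had 63.5% and 0.794. AGATAA stood in 11.9% of the negative and 5.88% of the positive promoters, against 7.59% over all genes. GGGCGG stood in 50.2% and 51% of them, against 60% over all. CCAAT was found in 35.8% and 41.2% (36.3% over all), TGACTCA in 3.98% and 2.94% (3.55%), TTCNNNGAA in 5.47% and 5.88% (7.07%) and the interferon response motif in 4.98% and 2.94% (3.04%). Over all called genes, whatever the size of the difference, AGATAA stood in 7.55% of negative and 6.52% of positive promoters. GGGCGG stood in 65.7% and 64.4% of those. Their median GC content was 64.7% and 64.3%, and their CpG ratio 0.792 and 0.817. The lower GC content and CpG ratio above thus belong to the negative 2-fold set only, and the lower GGGCGG share to both 2-fold sets. Among genes above the low level in both lines, AGATAA stood in 4.98% and GGGCGG in 70.3%. A match is a run of letters and does not show that a factor binds there.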

How the data were processed

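The authors' deposited table holds 1 value per row and array. Per the submitters' processing notes it was made with Affymetrix Expression Console and RMA (versions not given in the sources used here), which corrects background, quantile-normalizes and summarises probes. The deposited values lay between 1.26 and 14.36 and are read as log2 from that range, since no label states the base. Of 33297 rows, 19460 had 1 gene symbol in GEO's platform annotation, 1754 several and 12083 none; for 769 genes with several rows the row with the highest mean was kept, which left 18417 genes. Symbols were checked by gene ID against RefSeq (GRCh38.p14): 19429 rows matched and 0 changed. The table carries no detection flag; precision is limited by the array number.

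Group means of all 12 arrays were estimated in 1 linear model with limma 3.58.1 (lmFit, eBayes, R 4.3.3; 8 residual and 5.30 prior degrees of freedom). Two-sided p-values were adjusted (Benjamini-Hochberg) over all 18417 genes at 0.05. The members, the 29 lists and the tests were chosen with earlier results of these data known.

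Named genes were the 10 most positive and 10 most negative differences with separate array differences; the 6 largest of each opposite pattern; the 6 largest each way among genes within 0.5 log2 and above the low level; from each list, at most 4 genes, those with the lowest adjusted p; and MYC, JAK2, STAT5A, BCL2L1, GATA1, TAL1, MYB, NFE2 and CDKN1A. Other list members, the remaining ABCA genes and OR52N1 were named after their values were seen. Alternatives were other scalings, the mean of a gene's rows, a filter on dim genes, an intensity trend, replicate blocks, gap classes from separate arrays, and leaving out each array. List genes that no single-symbol row named were not analysed here.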

Additional observations from a re-analysis of the deposited data

Results flagged for a closer look

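The count of 4395 genes whose responses differed between the lines was flagged by the test of that difference. So were the 12 genes with the largest differences among those that moved in opposite directions. Positive differences (UKE1 minus HEL, log2) were 2.92 for KRT79, 2.41 for FAM86B2-DT, 2.06 for AHNAK2, 1.65 for HMOX1, 1.58 for ACVR2A and 1.54 for MLH3. Negative ones were -2.93 for SOSTDC1, -2.10 for CA2, -2.06 for PGK2, -2.0 for IKZF2, -1.93 for SATB1 and -1.92 for LGALSL. Untreated levels were under the low level in UKE1 for KRT79, FAM86B2-DT and MLH3, in HEL for SOSTDC1, PGK2, IKZF2 and SATB1, and in both lines for AHNAK2.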

How the results depend on the processing

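The count of differing genes, 4395, ran from 3726 to 4245 when 1 array was left out, and was 4536 after quantile normalization, 4472 after median centring and 4931 with an intensity trend. Centring or quantile normalization over the tested genes only, chosen after seeing the data, gave 4579 and 4637. A filter on dim genes left 13747 genes and 4700 calls. Genes up in UKE1 and down in HEL numbered 111, and 69 after median centring. The class medians moved with the scaling. After median centring they were -0.37 for genes higher in UKE1, 0.031 for those higher in HEL, -0.077 for those 0.5 to 1 apart and -0.026 for those within 0.5. With centring over the tested genes they were -0.28, 0.13, 0.019 and 0.069, and quantile normalization over those genes gave -0.30 for the first. With the gap from 1 replicate number and the difference from the others, genes higher in UKE1 had -0.26 (number 1) and -0.29 (number 3), and number 2 gave 0.048 for genes higher in HEL and -0.0071 within 0.5. Of 149 named genes, 3 lost their call under some alternative (PECAM1, MT2A and DNAJA1), and none of the 149 reversed. Deviations of same-numbered arrays correlated weakly (from -0.0877 to 0.122), which does not settle whether they were paired. Between untreated and treated UKE1 the correlations were 0.0302 to 0.0348 for the same number and -0.031 to -0.00278 for different numbers. The fit with a replicate block by number gave 4274 genes, and that within each line 3899. With 3 arrays a group, the median standard error of a difference was 0.114, which limits what small differences can be seen.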
